A study of Mus musculus with 8 samples.

Results

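Cytosolic ribosomal proteins build the small and the large subunit of the ribosome, and their genes were described here in testis of mice that lack telomerase RNA (Terc), Ku86, or both. The members were all genes whose probe sets carry 1 symbol starting with Rpl (large subunit) or Rps (small subunit), without the kinase genes Rps6k and without pseudogene symbols holding -ps. There were 35 such genes with 49 probe sets, out of 8251 genes and 12422 probe sets in all, and each gene was followed by its brightest probe set by mean over the 8 arrays. By name, 17 belong to the large and 18 to the small subunit. A further 39 probe sets of ribosomal protein genes carried several symbols and were left out, so the 35 genes are a part of the family. The rule itself used no value of the comparisons, though the members were chosen with earlier results of these data known.

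RNA was hybridised to 8 Affymetrix MG_U74Av2 arrays, 2 for each of 4 genotypes. These were wild type, Terc-/- mice of generation 3 (G3), Ku86-/- mice with Terc, and Ku86-/- mice that were also G3 Terc-/-, called double knockout. The sources used here give neither strain nor age. The labels name testis as the source and the scanner records name germ cells, and in those records double knockout replicate 1 is RNA of 3 pooled mice and each of the others is that of 1 animal. Nothing further says how the 2 samples of a genotype were kept apart, so p-values measure the spread between these samples only.

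A ribosomal protein is made in step with its partners, because a subunit needs 1 copy of nearly every one. In mammals most of these messages begin with a run of pyrimidines, the 5′ terminal oligopyrimidine tract, through which the TOR pathway controls their translation. In the testis, genes on the X chromosome are silenced in meiotic spermatocytes, and the autosomal paralog Rpl39l is known for its expression in male germ cells beside the X-linked Rpl39.

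The start sequences of some members are shown because this pyrimidine run is the feature for which the family is known. Windows of 250 bases before and 50 bases after an annotated start were found in RefSeq's GRCm38.p6 annotation for 28 of the 35 genes, with 37 windows in all. The lines below give 40 bases before and 20 bases from the start on, 5′ to 3′ on the gene's strand. Capitals in the first 4 lines mark the unbroken run of C and T over the start, in the next 2 lines the motif TCTCGCGA on either strand, and in the Rps7 line CCGGAAG on either strand. The last 3 lines hold no such run or motif in the stretch shown.
Rps10: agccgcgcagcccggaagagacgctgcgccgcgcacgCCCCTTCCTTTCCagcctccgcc
Rps18: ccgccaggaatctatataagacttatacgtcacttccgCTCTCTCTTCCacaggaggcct
Rpl7a: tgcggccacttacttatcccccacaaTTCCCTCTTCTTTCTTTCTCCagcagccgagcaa
Rps27: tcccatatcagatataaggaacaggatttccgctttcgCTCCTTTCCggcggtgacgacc
Rps19: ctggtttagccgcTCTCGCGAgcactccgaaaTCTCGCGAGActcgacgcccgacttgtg
Rps28: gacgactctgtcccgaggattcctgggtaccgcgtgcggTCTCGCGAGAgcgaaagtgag
Rps7: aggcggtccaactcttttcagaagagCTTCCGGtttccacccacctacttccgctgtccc
Rplp0: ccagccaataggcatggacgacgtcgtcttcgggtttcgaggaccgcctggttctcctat
Rpl39l: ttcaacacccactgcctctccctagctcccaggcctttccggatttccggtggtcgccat
Rps4x: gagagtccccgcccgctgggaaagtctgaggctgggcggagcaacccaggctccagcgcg
These stretches lie on GRCm38.p6 at chr17:27635225-27635284 (minus strand, Rps10), chr17:33955646-33955705 (minus, Rps18), chr2:26910767-26910826 (plus, Rpl7a) and chr3:90213629-90213688 (minus, Rps27). The Rps19 stretch lies at chr7:24884552-24884611 (plus), the Rps28 stretch at chr17:33824543-33824602 (minus) and the Rps7 stretch at chr12:28635934-28635993 (minus). Those of Rplp0, Rpl39l and Rps4x lie at chr5:115559427-115559486 (plus), chr16:10170188-10170247 (plus) and chrX:102189372-102189431 (minus). The Rps19 stretch is 1 of 3 annotated starts of that gene.

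A run of at least 6 bases of C and T over the annotated start stood in 7 of the 37 member windows (18.9%), against 7.25% of all 32851 windows of the same length. The 7 genes were Rps10, Rps18, Rpl7a, Rps27, Rps24, Rpl38 and Rpl35a, and the run of Rpl7a was 21 bases long. The motif CCGGAAG, of the kind that ETS factors bind, was in 12 member windows (32.4%, against 8.86% of all), and TCTCGCGA was in 6 (16.2%, against 0.995%). The TATA box letters TATAAA were in 4 (10.8%, against 13.6%). All motifs were searched on both strands, and 1 window, that of Rps3a1, held both CCGGAAG and TCTCGCGA. A missing run says only that these letters do not cover the annotated start, which can lie some bases from the start used in the testis.

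The deposited values are probe set intensities, called signal here, which the authors had scaled so that each array has nearly the same trimmed mean, so a shift shared by all genes cannot be seen. The brighter of the 2 probe sets for Xrcc5, the gene of Ku86, read 11.1 to 75.6 on the 4 arrays labelled with Ku86 and 259.0 to 458.8 on the 4 labelled without it, opposite to what its loss would give, and the other read 0.4 to 3.4 on the 8 arrays. Where their probes lie on the transcript is unknown here, so whether they can test the label is unknown too. The cause of the higher reading on the arrays labelled without Ku86 was not tested. The genotypes are named as labelled, and every comparison below rests on those labels. No probe set carried the symbol Terc alone. The scanner records place double knockout replicate 1 and Ku86 knockout replicate 1 on scan day 1, wild type replicate 1 on scan day 3 after a repeated hybridisation, and the other 5 arrays on scan day 2, with the chip lot changing alongside. Wild type replicate 1 had the lowest median signal of the 8 arrays, 49.7, against 59.4 to 73.2 on the others. Of the defining markers of testis cells that had a probe set, none was at 0 on any array, which does not mean that all were detected. Some stayed under 11.8, to which lower signals were raised before testing, such as Sycp3 (0.7 to 9.3) and Sall4 (3.4 to 9.0). Others, such as Sox9 and Spo11, had no probe set with 1 symbol. The summed signal of 11 elongating spermatid markers ranged from 86219 to 103426.

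Of the 35 genes, 27 had a mean log2 signal at or above that of a signal of 38.1, the pooled 40th percentile, and were tested, 13 of the large and 14 of the small subunit. The 8 others lay low on this array design. Rps15 read 3.4 to 22.6 (median 6.8) over the 8 arrays, Rps27l 5.9 to 26.4 and Rps20 4.0 to 36.2. Rpl35a read 12.2 to 48.2, Rpl38 17.2 to 70.2, Rps14 9.9 to 63.9 and the paralog Rpl7l1 7.7 to 52.4. Rpl39, on the X chromosome and a protein of the exit tunnel, read 6.3 to 39.6 with a median of 18.1. A low signal here is that of a probe set and is no measure of the gene's abundance against other genes.

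Together the 35 probe sets held between 2.11% and 2.45% of the summed signal of an array. The share was 2.31% and 2.42% in wild type, 2.45% and 2.40% in the Terc knockout, 2.18% and 2.41% in the Ku86 knockout, and 2.11% and 2.37% in the double knockout. Each mutant's arrays overlapped those of wild type, while both Terc knockout arrays lay above both of the double knockout, and the pooled SD between the 2 arrays of a genotype was 0.130 percentage points. The 2 lowest shares came from the 2 arrays of scan day 1, and on scan day 2, where each genotype has an array, the share lay between 2.37% and 2.45%. The order of the genotypes depended on Rpl41, whose probe set is of the kind that matches a gene family (suffix f). Without it the share was 1.93% and 1.99% in wild type and 1.955% and 1.922% in the Terc knockout. It was 1.75% and 1.96% in the Ku86 knockout and 1.747% and 1.921% in the double knockout. Both double knockout arrays then lay below wild type, and the higher one just below the Terc knockout. The part of the scan day in these spreads was not tested. In bulk tissue, fewer cells of a type and less RNA per cell cannot be told apart.

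**Figure D1:**
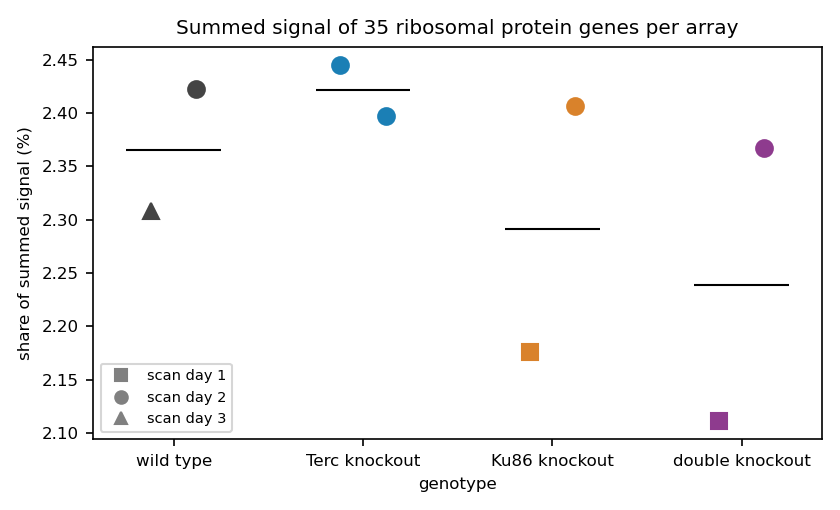
Summed signal of the 35 ribosomal protein genes as a percent of the summed signal of all probe sets without controls (y axis, not starting at 0), for each array by genotype (x axis). Each point is 1 array, its shape gives the scan day, and the horizontal bars are the means of 2 arrays. The squares of scan day 1 sit at 2.18% and 2.11%, and the circles of scan day 2 between 2.37% and 2.45%.

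The bright members varied little from array to array. Rps28, a small-subunit protein, read 9171.4 and 9897.7 in wild type, 9769.3 and 9451.4 in the Terc knockout, 8542.3 and 9672.0 in the Ku86 knockout, and 8229.9 and 9359.5 in the double knockout. The highest signal of this probe set, of the kind that matches a gene family (suffix f), was 1.20 times its lowest, the narrowest range of the 27. The ratio was 1.23 for Rpl6 and 1.26 for Rpl39l. It was under 1.5 for 15 of the 27 members (55.6%), against 18.6% of all 7282 probe sets tested, and among probe sets with a mean signal of at least 1000 for 13 of 17 members (76.5%) against 49.5% of 762. The SD between arrays of a genotype on the log2 scale had a median of 0.196 over the members and 0.299 over all probe sets tested, and was lowest for Rps3 (0.0933) and highest for Rps13 (0.921).

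The dim members varied most. Rps13, whose probe set is of the kind with relaxed probe selection (suffix r), read 236.4 and 81.7 in wild type, 81.5 and 248.2 in the Terc knockout, 47.1 and 120.8 in the Ku86 knockout, and 79.5 and 85.2 in the double knockout. The 2 arrays of wild type lay as far apart as those of the Terc knockout, and the groups overlapped. Wild type replicate 1 had the highest signal of the 8 arrays for 7 of the 27 members and the lowest for another 7, against 15.1% and 26.9% of all probe sets. Double knockout replicate 1 had the lowest signal for 10 members and the highest for 0, against 15.2% and 13.0% of all probe sets. Relative to each gene's mean over the 8 arrays, the median member lay 0.14 below on double knockout replicate 1 and 0.11 below on Ku86 knockout replicate 1, and within 0.10 on the other 6.

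**Figure D2:**
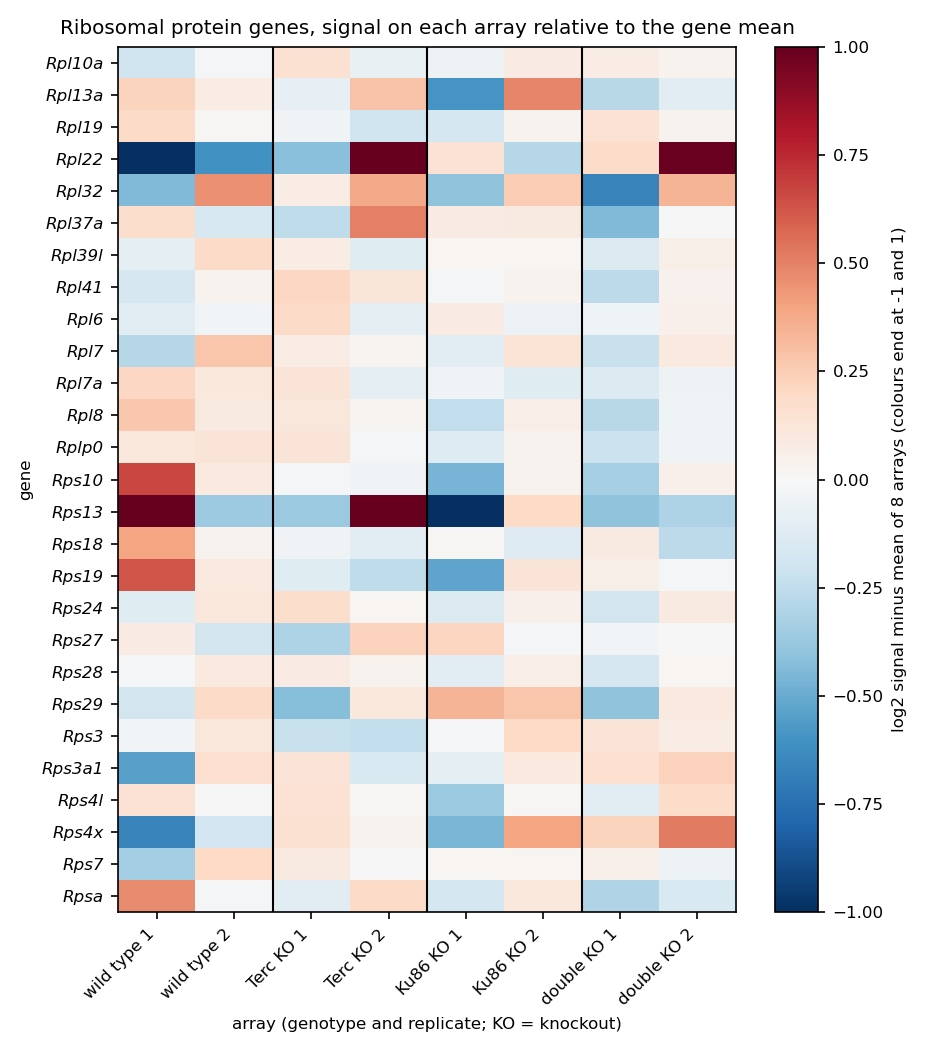
Log2 signal of the 27 tested ribosomal protein genes (rows) on each of the 8 arrays (columns, grouped by genotype), as the difference from the gene's mean over the 8 arrays. Red is higher and blue lower, with colours ending at -1 and 1. Most rows are pale throughout, Rpl22 and Rps13 are the darkest, and wild type replicate 1 is high for Rps10, Rps19 and Rpsa and low for Rps4x.

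No ribosomal protein gene passed the test in any of the 6 comparisons, which set the 3 mutant genotypes against wild type, averaged each loss over the other genotype, and tested the interaction. In each comparison 0 of 27 members had a Benjamini-Hochberg adjusted p under 0.05 by limma, and the lowest adjusted p was 0.497. Of all 7282 probe sets, limma called 0.0275% in the Terc knockout, 0.0412% in the Ku86 knockout, 0.0275% in the double knockout, 0.0137% for Terc loss averaged, 0% for Ku86 loss averaged and 0% for the interaction. At an unadjusted limma p under 0.05 there were 1, 2, 3, 1, 0 and 0 members in the same order, against 7.06%, 5.9%, 8.6%, 5.29%, 5.15% and 5.04% of all probe sets. The 3 comparisons with wild type share its 2 arrays.

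The intervals give the size of difference that these data leave room for. The 95% interval of the log2 difference lay within a 2-fold change in both directions for 22 of 27 members in the Terc knockout, 20 in the Ku86 knockout and 21 in the double knockout, against 51.4%, 52.3% and 52.9% of all probe sets. It lay within 1.5-fold for 13, 11 and 12 members, against 9.87%, 9.23% and 9.42% of all. The losses averaged over the other genotype use all 8 arrays, and 25 of 27 intervals lay within 2-fold for each loss. Of all probe sets, 78.9% did so for Terc and 79.5% for Ku86. Within 1.5-fold there were 21 for Terc and 19 for Ku86, against 39.4% and 37.5% of all. For the interaction 18 lay within 2-fold and 4 within 1.5-fold, against 23.3% and 0.961% of all. An unequal effect of 1 loss with and without the other is thus held less closely than the other differences. Rplp0, the base of the stalk that recruits elongation factors, shows this precision, with an interval from -0.38 to 0.26 in the Terc knockout and from -0.56 to 0.08 in the double knockout.

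**Figure D3:**
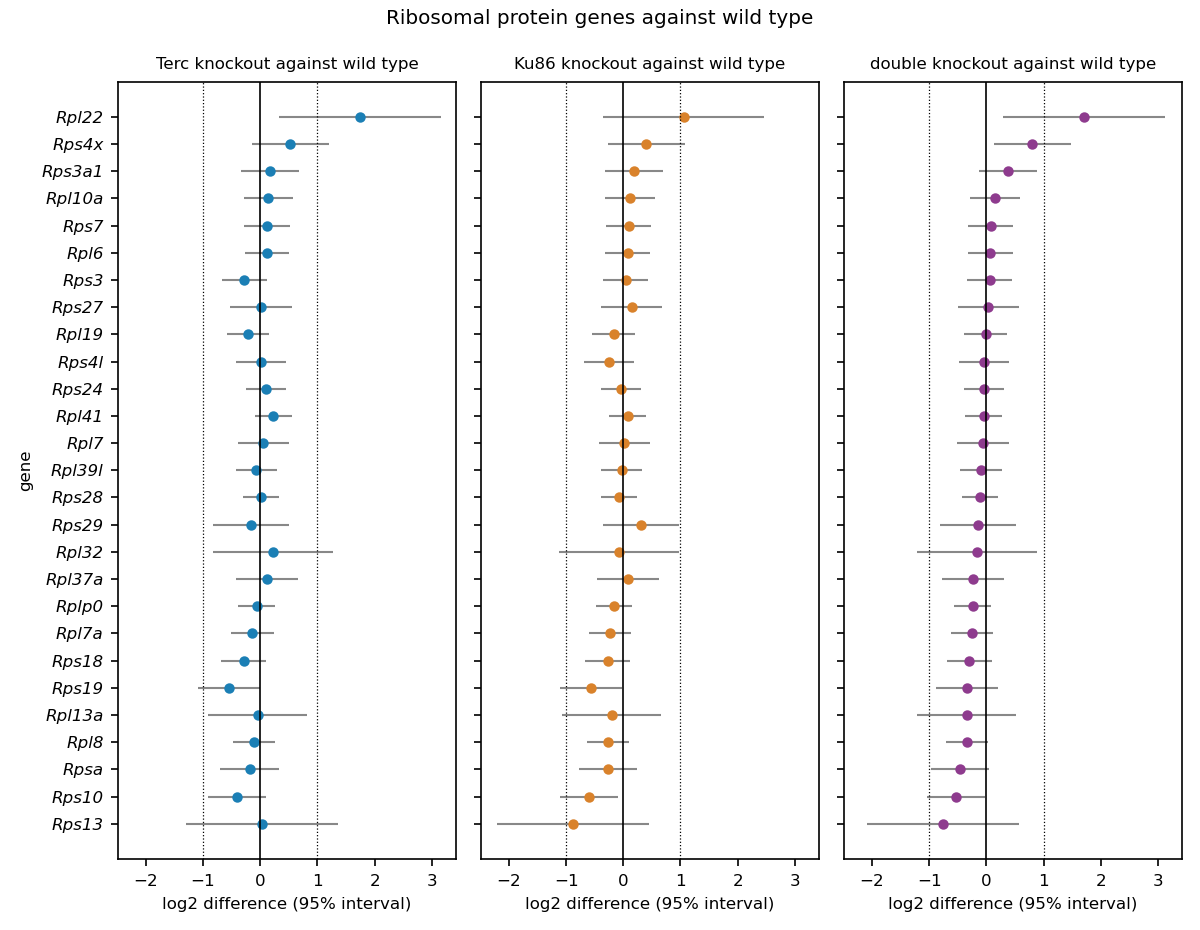
Fitted log2 difference from wild type (x axis, points) with its 95% interval (bars) for the 27 tested ribosomal protein genes (rows), in the Terc, Ku86 and double knockout. The dotted lines mark a 2-fold change. In the double knockout 21 of the 27 intervals lie between the dotted lines, and Rpl22 lies farthest to the right in all 3 panels.

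In the Terc knockout 15 of the 27 members lay above wild type and 12 below, with a median difference of 0.01 on the log2 scale, beside 61.1% of all probe sets above, 38.9% below and a median of 0.107 over all. In the Ku86 knockout 12 lay above and 15 below (median -0.05), against 59.7% and 40.3% of all probe sets and their median of 0.0954. In the double knockout 8 lay above and 19 below (median -0.09), against 58.7% and 41.3% of all and their median of 0.0754. For Terc loss averaged 11 lay above 0 and 16 below (58.1% and 41.9% of all), for Ku86 loss averaged 10 and 17 (55.1% and 44.9%), and for the interaction 11 and 16 (42.5% and 57.5%). The counts move with the scaling. After quantile normalization 13 members lay above and 13 below wild type in each of the 3, with Rpl41 at 0, and after centring each array on its median 5, 6 and 4 lay above and 22, 21 and 23 below. With scan day as a block 11, 12 and 13 lay above and 16, 15 and 14 below, with medians of -0.04, -0.03 and -0.02, and for Ku86 loss averaged 13 above and 14 below, with a median of -0.01 in place of -0.10. None of these settings brought a member past the threshold.

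The medians of the large and the small subunit lay close to each other. In the double knockout the 13 large-subunit genes had a median difference of -0.09, with 3 above wild type and 10 below, and the 14 small-subunit genes a median of -0.08, with 5 above and 9 below. In the Terc knockout the medians were 0.06 and 0.01, and in the Ku86 knockout -0.03 and -0.06. Without double knockout replicate 1 the median over all 27 members in the double knockout was 0.02, and without replicate 2 it was -0.20.

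The 2 arrays of the Terc knockout did not overlap those of wild type for 3 members on the higher side and 5 on the lower side, against 25.5% and 12.2% of all probe sets. In the Ku86 knockout these counts were 2 and 5 (24.4% and 13.7% of all), and in the double knockout 3 and 7 (23.2% and 13.2%). Averaged over the other genotype, with 4 arrays against 4, there were 0 members on either side, against 1.55% and 0.714% of all probe sets for Terc and 1.68% and 1.46% for Ku86. The members named below are the ones with the smallest p among these, and those fixed by their role.

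Rps10, a protein of the small subunit's head, read 4483.2 and 3020.4 in wild type, 2780.8 and 2748.9 in the Terc knockout, 2036.9 and 2881.4 in the Ku86 knockout, and 2236.9 and 2922.0 in the double knockout. Both wild type arrays lay above all 6 others, replicate 1 far above and replicate 2 just above. The log2 difference was -0.41 ± 0.23 (SE), -0.60 ± 0.23 and -0.53 ± 0.23, with limma adjusted p of 0.678, 0.802 and 0.562. Without wild type replicate 1 the differences were -0.13, -0.32 and -0.24, and within scan day 2 they were -0.13, -0.07 and -0.05.

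Rps19, the small-subunit protein whose human gene is mutated in Diamond-Blackfan anaemia, read 1394.9 and 968.1 in wild type and 833.1 and 759.8 in the Terc knockout. It read 625.8 and 986.6 in the Ku86 knockout and 943.2 and 893.2 in the double knockout, so the Ku86 knockout arrays fell on both sides of wild type replicate 2. The differences were -0.55 ± 0.25, -0.56 ± 0.25 and -0.34 ± 0.25 (limma adjusted p = 0.672, 0.802 and 0.769). Its interaction had the smallest p of the members that lay above 0, at 0.77 ± 0.35 (SE; limma adjusted p = 0.875). Without wild type replicate 1 the 3 differences were -0.28, -0.30 and -0.08, and within scan day 2 they were -0.28, 0.03 and -0.12.

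Rpsa, the small-subunit protein also known as the laminin receptor precursor, read 859.4 and 610.9 in wild type, 573.2 and 709.3 in the Terc knockout, 547.7 and 666.7 in the Ku86 knockout, and 502.0 and 556.4 in the double knockout. Only the double knockout arrays lay wholly below wild type, by 0.46 ± 0.23 (SE) on the log2 scale (limma adjusted p = 0.637). Without wild type replicate 1 this difference was -0.21, and that of the Terc knockout turned from -0.18 to 0.06. Rps18 read 6067.8 and 4715.4 in wild type and 3839.2 to 4910.8 elsewhere. Its differences of -0.29, -0.27 and -0.30 became -0.11, -0.09 and -0.12 without wild type replicate 1. For Rps10, Rps19, Rpsa and Rps18 alike, wild type replicate 1 had the highest signal of the 8 arrays.

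Rpl8, a large-subunit protein near the peptidyl transferase centre, read 6085.1 and 5381.3 in wild type, 5465.1 and 5137.2 in the Terc knockout, 4249.8 and 5295.7 in the Ku86 knockout, and 4155.5 and 4885.1 in the double knockout. Its differences were -0.11, -0.27 and -0.34, the last with an SE of 0.17 and a limma adjusted p of 0.607. Rplp0 read 8931.3 and 9046.5, then 9076.5 and 8169.9, then 7582.3 and 8513.8, then 7153.7 and 8104.5 in the same order. For both genes the lowest 2 arrays were those of scan day 1. Within scan day 2 the differences of Rpl8 were -0.02, -0.02 and -0.14, and those of Rplp0 -0.07, -0.09 and -0.16.

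**Figure D4:**
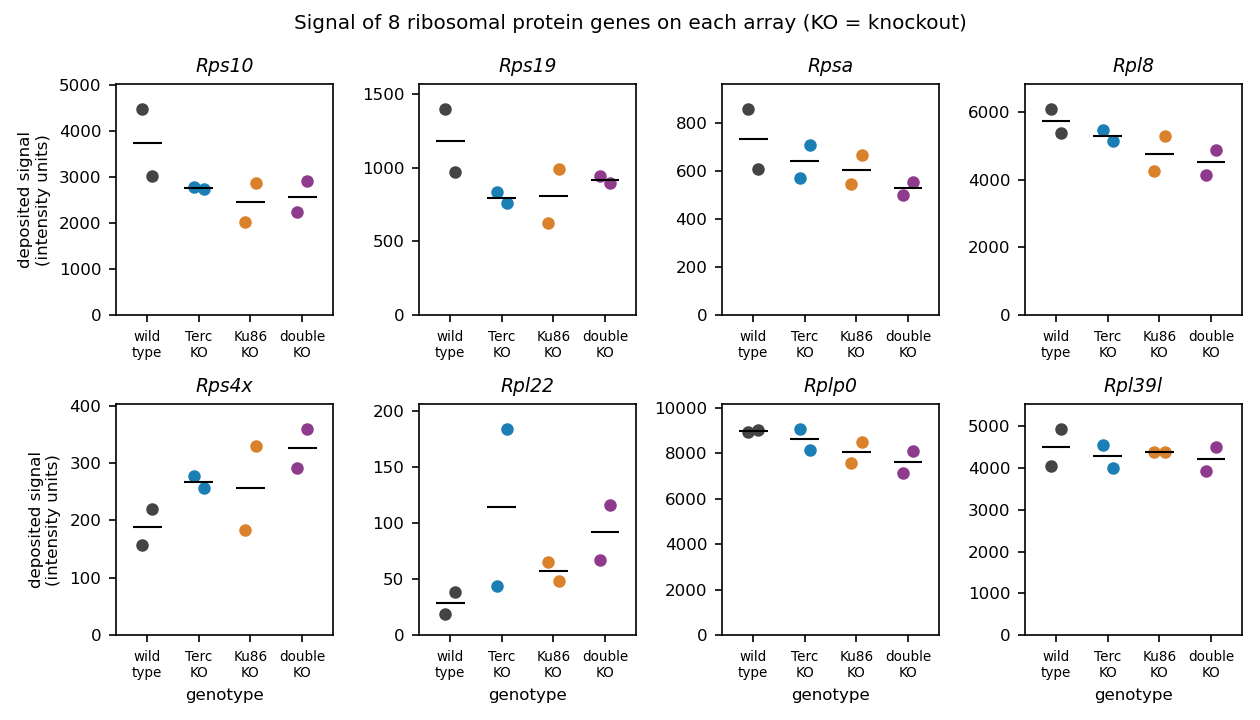
Deposited signal (y axes, intensity units, each from 0) of 8 ribosomal protein genes on each array (points), by genotype (x axes), with horizontal bars at the mean of 2 arrays. Rps10, Rps19 and Rpsa have 1 wild type array far above the rest, Rps4x and Rpl22 have their lowest array in wild type, and Rpl39l stays between 3926.4 and 4937.4.

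Rps4x, the X-linked small-subunit protein, was among the members with the higher signal in the mutants. It read 157.8 and 219.4 in wild type, 278.5 and 256.8 in the Terc knockout, 183.0 and 330.4 in the Ku86 knockout, and 292.5 and 359.7 in the double knockout. The Terc and double knockout arrays lay wholly above wild type and the Ku86 knockout arrays spanned it. The differences were 0.52 ± 0.31, 0.40 ± 0.31 and 0.80 ± 0.31 (SE; limma adjusted p = 0.681, 0.818 and 0.497). Without wild type replicate 1 they were 0.29, 0.16 and 0.56, within scan day 2 they were 0.29, 0.59 and 0.71, and without Ku86 knockout replicate 2 that of the Ku86 knockout was -0.02. A second Rps4x probe set (suffix r) differed by 1.45 ± 0.94 in the double knockout, and 3 more were too dim to test. This second one read 88.2 and 24.8 in wild type, 19.8 and 154.8 in the Terc knockout and 126.5 and 25.4 in the Ku86 knockout. Its Terc and Ku86 knockout arrays thus overlapped wild type.

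Rpl22, a large-subunit protein with its own paralog Rpl22l1, had the largest differences of the 27 in the 3 comparisons with wild type, with signals near background in wild type. It read 18.8 and 38.8 in wild type, 44.2 and 184.2 in the Terc knockout, 65.2 and 48.4 in the Ku86 knockout, and 66.9 and 116.7 in the double knockout. All 6 mutant arrays lay above both wild type arrays. The differences were 1.74 ± 0.65, 1.06 ± 0.65 and 1.71 ± 0.65 (SE; limma adjusted p = 0.672, 0.802 and 0.497). Without wild type replicate 1 they were 1.22, 0.53 and 1.19, without Terc knockout replicate 2 that of the Terc knockout was 0.71, within scan day 2 that of the Ku86 knockout was 0.32, and with values under a signal of 38.1 set to it the 3 were 1.23, 0.55 and 1.20. The second Rpl22 probe set, 5.4 to 46.6 over the 8 arrays, was too dim to test.

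Some lists of cell type markers had higher sums on the double knockout arrays, where Rps4x and Rpl22 also lay above wild type, and others did not. The summed signal of 15 Sertoli cell markers was 2783 to 2851 in wild type and 3757 to 4222 in the Terc knockout. It was 3073 to 4567 in the Ku86 knockout and 5130 to 6159 in the double knockout. In the double knockout 15 of 15 lay above wild type and 10 had an unadjusted limma p under 0.05. Of all probe sets, 58.7% lay above and 8.6% were under 0.05. In that comparison limma called no marker of any list, and 0.0275% of all probe sets. The sum of 14 peritubular, vascular and matrix markers was 2012 to 2161 in wild type and 3315 to 3848 in the double knockout. There 14 of 14 lay above wild type, 8 of them under 0.05. The sum of 5 spermatogonia markers was 1573 to 2522 in wild type and 2682 to 3043 in the double knockout. There 5 of 5 lay above wild type, 2 of them under 0.05. The Terc (2207 to 2776) and Ku86 (2435 to 2920) knockouts overlapped wild type. Ddx4 was the brightest of the 5 (865.2 to 2229.7 over the 8 arrays), with Dazl next (272.4 to 696.3), so this sum mainly follows Ddx4. Zbtb16, Gfra1, Stra8 and Sall4 were too dim to test. The sum of 5 macrophage markers was 485 to 531 in wild type and 477 to 578 in the double knockout, and that of 5 Leydig cell markers 778 to 937 and 942 to 1633. The sum of 3 erythroid genes was lower in the double knockout, 1754 to 1765 against 3066 to 4194. There 1 of 3 lay above wild type and 2 below, with 2 of the 3 under 0.05. The sum of 6 spermatocyte markers overlapped between wild type and the double knockout, at 20269 to 22293 and 19534 to 21282. That of 10 round spermatid markers overlapped too, at 15974 to 17854 and 12811 to 17891. No macrophage, Leydig cell, spermatocyte or round spermatid marker was under 0.05 in the double knockout. The part of the cell makeup in the values of Rps4x and Rpl22 was not tested.

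Rpl39l, the germ cell paralog of Rpl39, read 4062.4 and 4937.4 in wild type, 4565.5 and 3995.3 in the Terc knockout, 4386.3 and 4385.1 in the Ku86 knockout, and 3926.4 and 4502.8 in the double knockout. The arrays of all 4 genotypes overlapped. The differences were -0.07, -0.03 and -0.09, and the interval in the double knockout ran from -0.45 to 0.27, which leaves room for a fall of less than 1.5-fold. Rps4l, which the gene table lists as a transcribed pseudogene, read 1039.1 to 1525.0, and its probe set is of the kind shared by several genes (suffix s), so reads of a near-identical copy cannot be told apart. Its differences were 0.01, -0.25 and -0.03.

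Rps3, which lines the entry of the messenger RNA channel, read 1066.2 and 1175.3 in wild type, 930.8 and 913.9 in the Terc knockout, 1071.8 and 1243.1 in the Ku86 knockout, and 1188.0 and 1141.2 in the double knockout. The Terc knockout alone lay wholly below wild type, by 0.28 ± 0.18 (SE) on the log2 scale (limma adjusted p = 0.687). Rpl41, the smallest protein of the ribosome, read 13751.8 and 15880.1 in wild type and 17847.2 and 16788.8 in the Terc knockout, a difference of 0.23 ± 0.15 (limma adjusted p = 0.686), and its probe set belongs to the kind that matches a gene family (suffix f). In the double knockout it differed by -0.05. Rpl10a differed by 0.16 in the double knockout and Rps29 by 0.31 in the Ku86 knockout, each wholly above wild type and neither past the threshold. Without wild type replicate 1 these were 0.06 and 0.12, and that of Rpl41 in the Terc knockout was 0.12. In the interaction, Rpl19 (0.37), Rpl37a (-0.43), Rpl41 (-0.35) and Rps10 (0.49) were also among the members with the smallest p, each with a limma adjusted p of at least 0.875. With each array left out in turn they ranged from 0.27 to 0.48, -0.81 to -0.05, -0.50 to -0.20 and 0.21 to 0.78, and that of Rps19 from 0.44 to 1.10. The values nearest to 0 came without Terc knockout replicate 2 for Rpl37a, double knockout replicate 1 for Rpl41, wild type replicate 1 for Rps10, and Ku86 knockout replicate 1 for Rpl19 and Rps19.

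Where a gene had several tested probe sets they did not always point the same way. Of 6 such genes, the probe sets all had the same sign in 4 in the Terc knockout, 1 in the Ku86 knockout and 4 in the double knockout. For Terc and Ku86 loss averaged these counts were 5 and 4. The second Rpl19 probe set, 32.2 to 254.0 in signal, differed by 1.59 ± 0.77 in the double knockout, where the brightest differed by -0.01 ± 0.17. The brightest Rps24 probe set, 8438.5 to 10797.5, was listed with the same accession as that of Rpl7 (suffix s), which read 2815.0 to 4152.8. The other Rps24 probe set read 29.3 to 77.4 and the other Rpl7 probe set 9.8 to 35.6. The identity of both bright signals is therefore uncertain, and whether they follow 1 transcript, counted for both genes, is unknown here. Of the 27 tested probe sets, 7 carried a suffix, and without suffixed probe sets the median difference in the double knockout was -0.12.

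The members with and without a pyrimidine run were set side by side as a description. The 5 tested genes with a run, Rps10, Rps18, Rpl7a, Rps27 and Rps24, had a median difference of -0.14 in the Terc knockout, -0.23 in the Ku86 knockout and -0.25 in the double knockout. The 17 tested genes with a window but no run had medians of 0.03, 0.04 and -0.05. The medians of the genes with a run are the values of Rpl7a. Rps10, Rps18 and Rpl7a are among the genes that were highest on wild type replicate 1, and Rps27 lay at 0.01, 0.15 and 0.04. The Rps24 probe set counted here is the bright one of uncertain identity.

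Other genes of protein synthesis were followed by lists of genes from their known roles, and limma called none of them in any comparison. In the double knockout, where the background was 58.7% of probe sets above wild type and 8.6% with an unadjusted p under 0.05, 24 of 31 tested initiation factors lay above (median 0.14, 1 under 0.05), and 37 of 57 ribosome biogenesis genes (median 0.10, 5 under 0.05). Of 8 elongation and termination factors 4 lay above (median -0.01), and of 8 TOR pathway genes 7 (median 0.13), with none under 0.05 in either. The 56 tested mitochondrial ribosomal proteins had medians of -0.10, -0.12 and -0.08 in the Terc, Ku86 and double knockout, with 33, 45 and 32 below wild type (38.9%, 40.3% and 41.3% of all probe sets) and 3, 2 and 2 under 0.05 (7.06%, 5.9% and 8.6% of all). The 2 ribosome-associated genes had medians of -0.35, -0.20 and -0.05, with 1, 0 and 0 under 0.05.

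The list genes with the smallest p were likewise not called. In the Terc knockout, Mrps34 of the mitochondrial small subunit read 906.8 and 559.9 in wild type and 439.8 and 365.9 in the knockout (-0.83 ± 0.25, limma adjusted p = 0.672), or -0.48 without wild type replicate 1. The initiation factor Eif2a, near background in wild type, read 24.4 and 21.5 there against 53.2 and 63.4 (1.34 ± 0.50, limma adjusted p = 0.672), and differed by 0.60 with values under 38.1 set to it. In the Ku86 knockout, Mrps26 differed by -0.77 and Polr1c, a subunit shared by RNA polymerases I and III, by -0.57, and within scan day 2 by -0.47 and -0.25. In the double knockout, Gar1, a protein of the box H/ACA particles that include telomerase, read 469.3 and 233.6 in wild type and 1035.6 and 553.4 in the knockout, a difference of 1.19 ± 0.40 (limma adjusted p = 0.445), which was 0.69 without wild type replicate 2 and 0.74 without double knockout replicate 1. Nucleolin (Ncl) read 215.8 and 286.7 in wild type and 530.3 and 437.9 in the double knockout (0.95 ± 0.33, limma adjusted p = 0.469; 0.61 within scan day 2). Both arrays of the double knockout lay above both of wild type for Gar1 and for Ncl, as for 23.2% of all probe sets. For Terc loss averaged the smallest p were those of Gar1 (0.94) and Eif2s3x (1.06). For Ku86 loss averaged they were those of Ubtf (1.05, read 37.7 and 27.2 in wild type) and Mrps26 (-0.49). For the interaction they were those of Mrps34 (0.91) and Naca (0.66). Each of these had a limma adjusted p of at least 0.875.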

How the data were processed

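Probe set intensities were used as the authors deposited them, on a linear scale and scaled to a common trimmed mean. The sources used here do not name their software. Signals under 11.8, the pooled 20th percentile, were raised to it before log2 was taken, and probe sets whose mean log2 signal lay under that of 38.1 were left out, which left 7282. limma 3.58.1 in R 4.3.3 (lmFit, eBayes with a trend) was fitted to all 8 arrays with 1 mean per genotype and no block, two-sided, with Benjamini-Hochberg adjustment over all 7282 probe sets, and was tested on simulated data. Symbols came from GEO's platform table, updated through gene IDs. Of 12488 probe sets, 66 were controls, 10855 had 1 symbol, 396 several and 1237 none. With 2 arrays a genotype, their number limits the precision. Members, lists and named genes were chosen with earlier results of these data known. Named members were those fixed by role and up to 3 in each direction per comparison with the smallest p among those not overlapping; list genes were the 2 with the smallest p. Start sequences are RefSeq's. Alternatives covered scaling, floor, filter, variance trend, blocks, scan day, probe set choice, paralogs and each array left out. Leaving out suffixed probe sets was added after seeing the data.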

Additional observations from a re-analysis of the deposited data

How the results depend on the processing

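No member was called under any alternative, where the lowest adjusted p by limma was 0.201, reached for Rps10 in the Ku86 knockout without wild type replicate 2. Median centring of the arrays moved the members' median difference to -0.14 in the Terc, -0.16 in the Ku86 and -0.22 in the double knockout. In the interaction it moved to 0.0686. Centring shifts all probe sets of an array alike, and the median over all 7282 moved alongside. That median went from 0.107 to -0.0435, 0.0954 to -0.0174, 0.0754 to -0.0562 and -0.0938 to 0.0376 in the same order. Within scan day 2 the members' median in the interaction was 0.0522. Leaving out each array in turn gave medians from -0.05 to 0.02 in the Terc knockout, -0.14 to 0.03 in the Ku86 knockout, -0.20 to 0.0241 in the double knockout, -0.07 to 0.02 and -0.15 to -0.02 for Terc and Ku86 loss averaged, and -0.14 to 0.068 for the interaction. The interaction's median turned from -0.06 to 0.068 without Ku86 knockout replicate 2, to 0.06 without double knockout replicate 1 and to 0.02 without wild type replicate 1. The mean share of signal was 2.33%, and it was 1.96% with each gene's probe sets averaged and 2.17% without the paralogs, both because fewer or dimmer probe sets were summed. With the replicate number as a block 0 members were called, and the medians stayed at 0.01, -0.05 and -0.09 in the 3 comparisons with wild type. The numbers did not pair the arrays by the rule used, since same-numbered arrays' deviations correlated at 0.01 to 0.25 and not over 0.1 in every pair. The cause of these moves was otherwise not tested. The 2 arrays a genotype limit every comparison, and for dim probe sets such as those of Rpl22, Rps13 and Rpl32 the signal near background limits it further.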
